A study of Mus musculus with 4 samples.

Results

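The Bex and Tceal genes encode small adaptor proteins, and most of them lie on the mouse X chromosome. The 6 members described here, Bex1, Bex2, Bex3, Bex4, Tceal7 and Tceal9, were taken by symbol from the 56980 genes of the count matrices. They were chosen by the same measured values that are described here: their UMI levels in TKO (mutant) against Ctrl epidermis, known from earlier results of these data. Their differences between genotypes are therefore given as descriptions. Where calls of the members by the fit over all genes are counted, they stand beside the share of all genes called and support nothing about the members, and p-values are given only for genes outside the 6.

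Bex stands for brain-expressed X-linked, and the family is best known from neurons. The proteins are short, mostly unstructured and without catalytic activity, and they work by binding others. Bex1 and Bex3 bind the cytoplasmic part of the p75 neurotrophin receptor, and Bex3 is also known as NADE, an executor of cell death downstream of that receptor. Bex2 has been linked to survival signalling in tumour cells, and Bex4 binds tubulin. The Tceal proteins are named for a resemblance to the transcription elongation factor TFIIS, Tceal7 is known as a growth-restraining gene lost in ovarian tumours, and Tceal9, also called WBP5, binds WW domains. In skin none of these genes is a standard marker of a keratinocyte class.

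The study asked how the developing epidermis responds when enzymes that write H3K9me3, a histone mark of silent chromatin, are deleted. Single-cell RNA-seq was performed on dorsal skin cells sorted for Epcam and α6 integrin from mouse embryos labelled E16.5, in 2 Ctrl and 2 TKO libraries of 1 embryo each. Ctrl embryos carried floxed Suv39h1 and Setdb1, a constitutive Suv39h2 deletion and no Cre. TKO embryos had these alleles and, in addition, K14CreERT2, a recombinase driven by a basal keratinocyte promoter and switched on by tamoxifen. Both groups received tamoxifen, and both lacked Suv39h2, so the comparison is of Suv39h1 and Setdb1 deletion on that background. The recombinase acts in keratinocytes and their progeny, whereas fibroblasts and immune cells of the same embryos are not its target. Its action can be mosaic, and the study describes the TKO embryos sorted for this experiment as mosaic.

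The 4 libraries held 3804 to 5785 barcodes and 70749496 to 89655247 UMIs (unique molecular identifiers, 1 per captured transcript). After filtering, 10764 cells remained, of which 9181 were keratinocytes, with TKO cells the deeper, at a median of 21963 and 17329 UMIs per Ctrl keratinocyte and of 30072.5 and 28068 per TKO keratinocyte. Pairs of libraries shared between 2 and 12 cell barcodes. Keratinocyte clusters were named basal-like, differentiating-like or hair follicle-like from marker genes, and every listed marker of a class had UMIs in that class in all 4 libraries. Merkel-like cells, the touch receptor cells of the epidermis, numbered 33 and 23 in Ctrl but 5 and 1 in TKO, where only 3 and 2 of the 8 Merkel markers had a UMI, so the name does not hold there. A total of 146 keratinocytes, 134 of them from TKO, fell in 2 clusters that took no name. Setdb1, a targeted gene, had 67.9 and 58.2 CPM (counts per 1e6 UMIs) in Ctrl keratinocytes and 39.5 and 42.5 in TKO keratinocytes (log2 change −0.64 ± 0.127 SE, adjusted p = 0.0472, edgeR quasi-likelihood test). The other targets, Suv39h1 and Suv39h2, changed by −0.16 and 0.29 on the log2 scale and were not called, and reads at the 3′ end do not show whether an inner exon was deleted. All 4 libraries carried Y-linked transcripts (Uty at 114 to 162 CPM) and between 4 and 8 Xist UMIs in all keratinocytes, so a difference in X chromosome number between the groups was not seen. The study's methods state that each group held both sexes, which is at odds with these values.

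On GRCm39 the 6 genes lie within 207835 bases of the X chromosome, among 13 annotated genes of which 9 are protein-coding. Bex2 (ENSMUSG00000042750.8) spans X:134966566-134969208 on the minus strand and Bex4 (ENSMUSG00000047844.4) spans X:135037238-135041213 on the plus strand. Bex1 (ENSMUSG00000050071.9), at X:135114720-135116861 on the minus strand, overlaps the first part of Tceal7 (ENSMUSG00000079428.9), which runs the other way at X:135115360-135127950. Tceal9 (ENSMUSG00000042712.11) at X:135145787-135150536 and Bex3 (ENSMUSG00000046432.13) at X:135155024-135174400 follow on the plus strand. Their coding sequences are short, from 294 bases in Tceal7 to 387 in Bex2.

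The promoters of the members are shown first, and their part in the changes below was not tested. All 6 had an entry in the RefSeq promoter table (GRCm38.p6), which gives 250 bases before and 50 after the start, and each sequence was placed on GRCm39 by an exact match. The 30 bases below were chosen after the sequences had been read, because every member carries TGACG there, the core of the site bound by CREB and ATF factors, and because 4 also carry CACGTG, the E-box bound by USF, MITF and other helix-loop-helix factors. Capitals mark TGACG and, where present, CACGTGA. Sequences are written 5′ to 3′ on the gene's own strand.
Bex1: tcTGACGcaagtggCACGTGActagcccac
Bex4: tcTGACGcaagtggCACGTGActagcccac
Bex3: agTGACGcagggccctCACGTGAcccgggg
Tceal7: ctCACGTGAttagaagcTGACGtgagccca
Tceal9: ggTGACGtagatctcatgtgaccaggagtc
Bex2: agTGACGggtggggcccgaggtgagcactg

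The windows lie at X:135116250-135116279 (Bex1, minus strand), X:135039722-135039751 (Bex4, plus), X:135171013-135171042 (Bex3, plus, 11 bases past the RefSeq start), X:135124728-135124757 (Tceal7, plus), X:135145823-135145852 (Tceal9, plus) and X:134969005-134969034 (Bex2, minus). The Bex1 and Bex4 windows are the same 30 bases. TGACG followed by CACGTGA with 3 to 20 bases between them, searched on both strands, was found in the promoters of Bex1, Bex3 and Bex4, against 48 of 32851 promoters of all genes (0.146%) and 17 of 1223 on the X chromosome (1.39%). Tceal7 holds both in the opposite order. The order of the first group also stood in 5 of the 6 other Bex and Tceal genes (Tceal1, Tceal3, Tceal5, Tceal6 and Tceal8) and in Armcx1, Armcx4 and Armcx6 of a neighbouring family. Single TGACG was in 20.8% of all promoters and single CACGTG in 7.15%. The pair was read from these same windows, so its presence in the members was fixed in advance, and the counts include them. A match describes letters and says nothing of binding.

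Longer stretches are shared in pairs whose members differ in level. Bex1 and Bex4 have an identical run of 271 bases in the promoter table, and the 221 bases upstream of the Bex1 start (X:135116263-135116483) recur upstream of Bex4 (X:135039518-135039738) with 0 mismatches.
Bex1 and Bex4: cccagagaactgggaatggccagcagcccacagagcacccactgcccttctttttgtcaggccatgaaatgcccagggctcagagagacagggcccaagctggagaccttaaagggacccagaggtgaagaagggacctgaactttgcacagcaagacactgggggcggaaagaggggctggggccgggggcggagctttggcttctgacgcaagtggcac
Bex2 and Bex3 likewise share an identical run of 162 bases, and the 136 bases upstream of Bex2 (X:134968986-134969121) recur upstream of Bex3 (X:135170829-135170964).
Bex2 and Bex3: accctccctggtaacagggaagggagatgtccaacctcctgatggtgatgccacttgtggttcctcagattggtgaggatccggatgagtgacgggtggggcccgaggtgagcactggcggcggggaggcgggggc
As the values below show, Bex1 differed between genotypes by a far larger factor than Bex4, and Bex3 was higher in TKO while Bex2 was not. Whether the shared stretches bear on these levels was not tested. In the part of the transcripts that a 3′ assay reads, the 500 bases before the 3′ end, 19 of the 411 90-base words of Bex1 also occur in Bex2. For Bex4 the matches to Gm4322, Gm57340 and Gm12245 add up to 96, with a word counted once for each gene that holds it. A share of Bex4 reads could thus not be placed uniquely. The last 500 bases of Bex2, Bex3, Tceal7 and Tceal9 have no such word in another gene.

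In keratinocytes as a whole, 5 of the 6 members had both TKO libraries above both Ctrl libraries (28.8% of the 19941 genes tested did), and 4 passed the threshold as raised (4.26% of all genes did) and 0 as lowered (2.58%). These counts are no evidence about the members, since the same contrast chose them. Without Ctrl replicate 1 the fit called 7 genes in all, none of them a member, while the log2 changes were 4.197 for Bex1, 0.89 for Bex3 and 0.93 for Tceal9, and Tceal7 had 0 Ctrl UMIs left. Their median log2 change was 1.19, against −0.02 over all genes tested. The plot of levels by class and library shows each gene in each library.

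**Figure D1:**
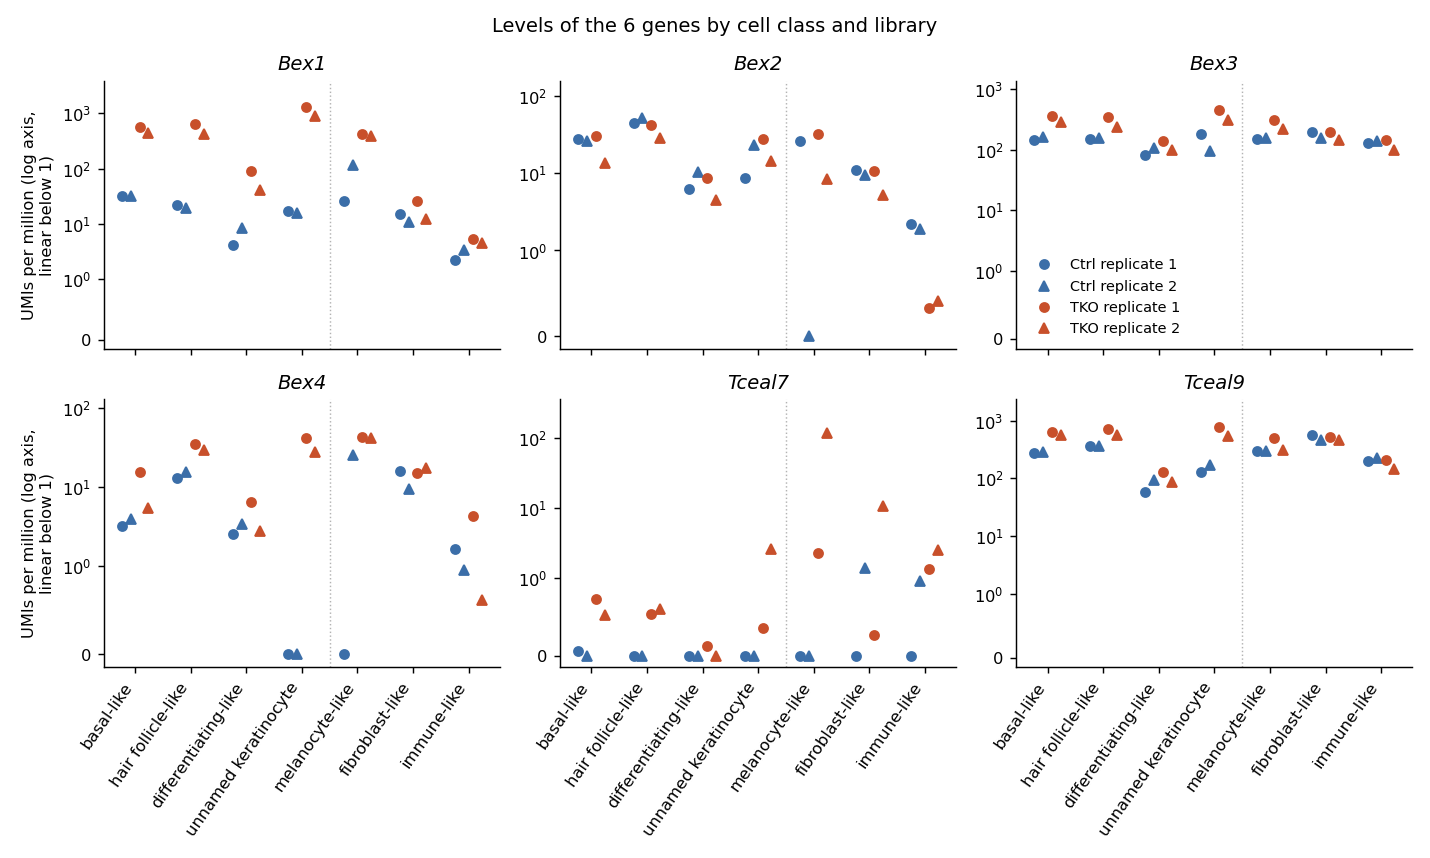
Level of each of the 6 genes (CPM, symmetric log axis that is linear near 0) in 4 keratinocyte classes and 3 non-epithelial classes, 1 point per library, Ctrl and TKO in separate colours. Bex1 lies at 4.04 to 32.4 CPM in the 3 named Ctrl keratinocyte classes and at 40.9 to 639 CPM in the same TKO classes, whereas Bex3 and Tceal9 overlap between genotypes in fibroblast-like and immune-like cells.

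Bex1, the p75-binding member, had the widest difference of the 5 members with more than a few Ctrl UMIs. In keratinocytes it had 20.6 and 24.4 CPM in Ctrl replicates 1 and 2 and 550 and 341 CPM in TKO replicates 1 and 2, from 1404, 1396, 28718 and 18441 UMIs. The genotypes did not overlap and the lower TKO library was still an order of magnitude above the higher Ctrl library. The means were 22.5 ± 2.67 and 445 ± 148 CPM (SD, n = 2 each), a 19.8-fold difference, and the fitted log2 change was 4.29 ± 0.247 (SE). Both Ctrl libraries were close to each other, while TKO replicate 1 exceeded TKO replicate 2.

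Bex1 differed in every named keratinocyte class but not to the same level. Basal-like cells, the proliferating layer on the basement membrane, had 31.5 and 32.4 CPM in Ctrl and 578 and 435 CPM in TKO, 15.8-fold apart (log2 change 4.004 ± 0.153). Differentiating-like cells had 4.04 and 8.48 CPM in Ctrl and 89.97 and 40.9 CPM in TKO, 10.45-fold apart (log2 change 3.35 ± 0.490, and 2.72 with TKO replicate 1 left out). Hair follicle-like cells had 21.6 and 19.5 CPM in Ctrl and 639 and 417 CPM in TKO, 25.7-fold apart (log2 change 4.73 ± 0.219). In each of the 3 classes the 4 libraries separated by genotype, and in both genotypes the differentiating-like level was the lowest of the 3. Between basal-like and hair follicle-like cells the order was basal-like first in both Ctrl libraries, whereas in TKO the 2 classes overlapped across libraries. The 2 unnamed clusters together held 4, 8, 80 and 54 cells per library and had Bex1 at 17.2 and 15.5 CPM in Ctrl, each from 2 UMIs, and at 1292 and 885 CPM in TKO, the highest of any class.

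Before genes called between genotypes were left out, a cluster of 17, 18, 296 and 212 keratinocytes per library had Bex1 among its leading genes. In the clustering without those genes, the Bex1 difference was seen in nearly all clusters that both genotypes shared. Of 18 keratinocyte clusters with at least 10 cells in every library, both TKO libraries exceeded both Ctrl libraries for Bex1 in 17. The exception was a differentiating-like cluster of 60 and 25 Ctrl cells and 15 and 21 TKO cells, where Bex1 was at 0 CPM in all libraries but TKO replicate 1, which had 2 UMIs. In the 16 clusters with more than 3 Bex1 UMIs in each genotype, the ratio of means ran from 3.04 to 43.5 with a median of 15.2. Its lowest value was in a hair follicle-like cluster led by Shh and Lhx2, at 26.6 CPM in Ctrl and 80.8 in TKO. Its highest was in the hair follicle-like cluster described next, at 29.3 CPM in Ctrl and 1273 in TKO. A basal-like cluster led by Kcnq5 and mt-Rnr1 had 1 Bex1 UMI in Ctrl and 95 in TKO, so no ratio is given for it. These clusters share the same 4 libraries, so they are not repeats of the comparison.

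**Figure D2:**
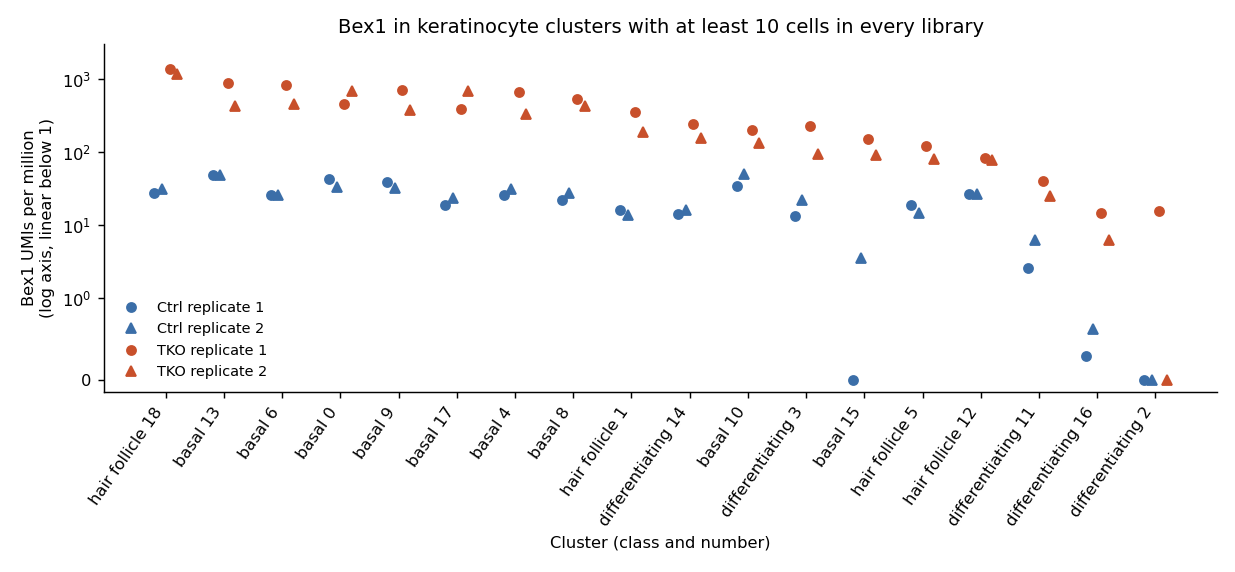
Bex1 level (CPM, log axis that is linear below 1) in each of the 18 keratinocyte clusters with at least 10 cells in every library, 1 point per library, Ctrl and TKO in separate colours. Both TKO points lie above both Ctrl points in 17 of the 18 clusters, the exception being a differentiating-like cluster with 3 of its 4 points at 0, and the cluster with the highest TKO level (1364 and 1182 CPM) is hair follicle-like.

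That cluster was made of 70, 59, 84 and 90 cells per library, and Bex1 was among its leading genes together with Dkk4, Fgf20 and Sp5, which mark hair placodes, and Tagln and Acta2, genes of contractile cells. It decided much of the hair follicle-like value. In it Bex1 stood at 27.2 and 31.3 CPM in Ctrl and 1364 and 1182 CPM in TKO. Without it, an alternative added after the cells had been seen, hair follicle-like cells had 20.5 and 18.2 CPM in Ctrl and 189 and 112 CPM in TKO, and the ratio of means fell from 25.7 to 7.79. The genotypes still did not overlap.

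The genotypes differed both in how many cells had a Bex1 transcript and in how many transcripts a cell had. With every cell thinned to 5000 UMIs, 8.51% and 9.89% of Ctrl keratinocytes and 58.8% and 43.3% of TKO keratinocytes had at least 1 Bex1 UMI (unthinned 23.5%, 23.8%, 79.6% and 66.9%). In immune-like cells the shares at the same depth were 2.38%, 1.61%, 1.08% and 2.88%, at unthinned median depths of 14454 to 19847.5 UMIs. Among basal-like cells the shares were 12.2%, 12.8%, 68.6% and 58.6%. In differentiating-like cells they were 1.95% and 3.21% in Ctrl, where the first lies below the immune-like share of its library and is not read as expression, and 18.9% and 10.0% in TKO.

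Cells with 5 or more Bex1 UMIs at that depth made up 0.201% and 0.286% of Ctrl basal-like cells and 22.3% and 13.001% of TKO basal-like cells. The maximum in any keratinocyte at that depth was 6 and 7 UMIs in Ctrl replicates 1 and 2, and 27 in each TKO library. In TKO, 41.2% and 56.7% of keratinocytes had none at this depth. In the unthinned counts, the tenth of keratinocytes with most Bex1 UMIs held 69.9% and 70.0% of those UMIs in Ctrl and 51.3% and 63.3% in TKO.

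**Figure D3:**
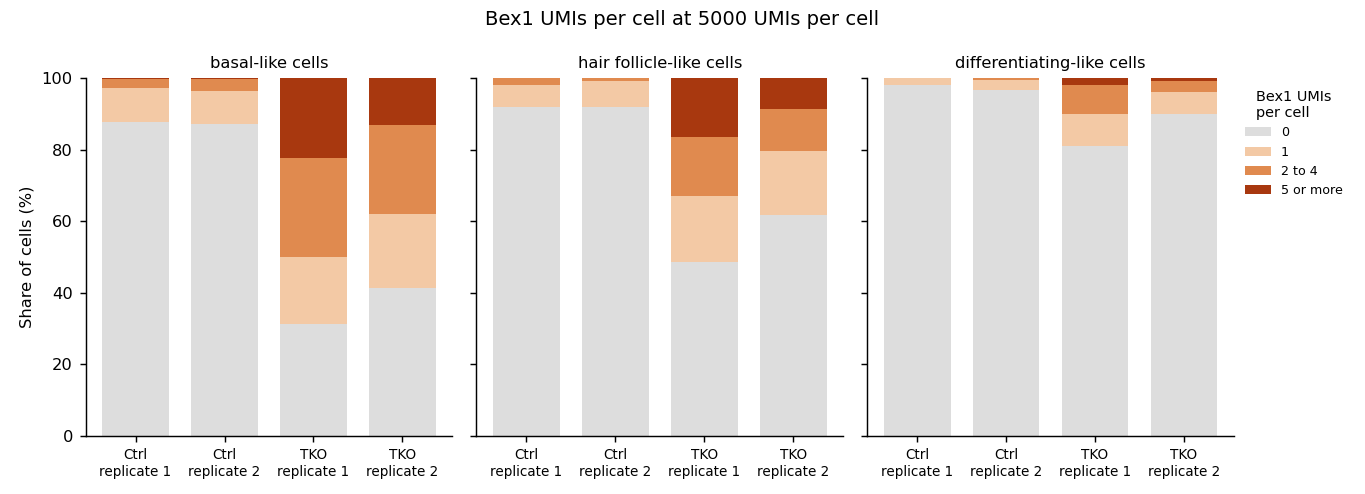
Share of cells (%) with 0, 1, 2 to 4 or at least 5 Bex1 UMIs after thinning to 5000 UMIs per cell, stacked to 100%, for basal-like, differentiating-like and hair follicle-like cells in each of the 4 libraries. Cells with 5 or more UMIs take 22.3% and 13.001% of TKO basal-like cells against 0.201% and 0.286% in Ctrl, and differentiating-like cells are mostly without a Bex1 UMI in all 4 libraries.

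Bex3, the other p75-binding member, differed by a smaller factor from a higher starting level. Keratinocytes had 125 and 150 CPM in Ctrl and 324 and 227 CPM in TKO, with means of 137 ± 17.4 and 275 ± 68.8 CPM, 2.01-fold apart (log2 change 0.99 ± 0.175). The 2 groups did not overlap. In basal-like cells the values were 145, 163, 357 and 286 CPM, in the order Ctrl 1, Ctrl 2, TKO 1 and TKO 2 (log2 change 1.08 ± 0.129). Hair follicle-like cells had 147, 157, 341 and 233 CPM in the same order (log2 change 0.96 ± 0.167). Differentiating-like cells had 82.6, 107, 140 and 99.4 CPM, so the genotypes overlapped there. At 5000 UMIs per cell, 41.7% and 49.9% of Ctrl and 70.0% and 58.1% of TKO keratinocytes had a Bex3 UMI. Over the 18 clusters both TKO libraries were higher in 15, with ratios of 0.735 to 3.44.

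Bex4, the tubulin-binding member, was expressed at a low level. It had 4.97 and 6.51 CPM in Ctrl keratinocytes and 19.2 and 10.498 CPM in TKO keratinocytes, from 339, 373, 1003 and 568 UMIs. The groups did not overlap, at means of 5.74 ± 1.09 and 14.9 ± 6.15 CPM, and the log2 change was 1.35 ± 0.306 (1.72 without TKO replicate 2). TKO replicate 2 lay nearer to Ctrl, so the size of the difference rested more on TKO replicate 1. In basal-like cells it had 3.27, 3.97, 15.8 and 5.40 CPM, and the difference rested on TKO replicate 1, without which the log2 change was 0.63 in place of 1.57. Hair follicle-like cells had the highest levels of the 3 named classes, 13.3 and 15.7 CPM in Ctrl and 35.1 and 29.4 CPM in TKO (log2 change 1.20 ± 0.158). In differentiating-like cells the genotypes overlapped, at 2.58, 3.47, 6.45 and 2.84 CPM. Over the 18 clusters both TKO libraries were higher in 9 and lower in 0.

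Bex2 was the exception among the Bex genes. Keratinocytes had 25.3 and 29.0 CPM in Ctrl and 28.8 and 14.5 CPM in TKO, so the genotypes overlapped (log2 change −0.35 ± 0.299, and −0.89 without TKO replicate 1). TKO replicate 1 lay between the Ctrl libraries, so the negative sign rested on TKO replicate 2. Basal-like cells had 27.9, 26.1, 30.4 and 13.6 CPM, where TKO replicate 1 was the highest library and TKO replicate 2 the lowest. In hair follicle-like cells both TKO libraries lay below both Ctrl libraries, at 45.1 and 52.3 against 41.9 and 28.7 CPM (log2 change −0.42 ± 0.180), which 33% of all genes tested in that class also did. Over the 18 clusters both TKO libraries were higher in 1 and lower in 4.

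The highest Bex2 levels of any class with over 20 cells in Ctrl were in Merkel-like cells, at 196 and 155 CPM from 112 and 53 UMIs. The 5 and 1 TKO cells of that cluster had 0 Bex2 UMIs, and the pooled Ctrl level was at least 11.8-fold higher than the floor that 3 counts over the group would give. Of Bex4 these Ctrl cells held 11 and 10 UMIs and the TKO cells 0, so the Ctrl level lay at least 1.51-fold above that floor. With so few TKO cells, which held 3 and 2 of the 8 Merkel markers, fewer Merkel-like cells and less RNA per cell cannot be told apart. Summed over keratinocytes, the 8 Merkel markers had 47.8 and 43.4 CPM in Ctrl and 6.56 and 4.62 CPM in TKO, and with Merkel-like cells left out the keratinocyte log2 change of Bex2 was −0.29.

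The 2 Tceal members stood at opposite ends of abundance. Tceal9, the WW domain binder, had 220 and 266 CPM in Ctrl keratinocytes and 571 and 437 CPM in TKO keratinocytes, without overlap. Its means were 243 ± 32.4 and 504 ± 94.9 CPM, 2.07-fold apart (log2 change 1.04 ± 0.151), a ratio next to that of Bex3. Basal-like cells had 277, 292, 626 and 561 CPM (log2 change 1.08 ± 0.102).

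In hair follicle-like cells Tceal9 had 367, 370, 716 and 565 CPM (log2 change 0.84 ± 0.129). In differentiating-like cells it fell to 57.6, 95.2, 129 and 87.3 CPM, the lowest of the 3 classes in every library, with overlap between genotypes. A Tceal9 UMI was found in 53.8%, 64.6%, 77.0% and 70.9% of keratinocytes at 5000 UMIs. Both TKO libraries were higher in 13 of the 18 clusters and lower in 1, the small differentiating-like cluster, where they had 0 UMIs against 23 in Ctrl. The ratios ran from 1.13 to 4.53 in the other 17.

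Tceal7 was near the limit of detection. Over all keratinocytes, Ctrl replicates 1 and 2 held 2 and 0 UMIs, and TKO replicates 1 and 2 held 30 and 25. The ratio of the pooled levels was 32.5, with an exact 95% interval of 8.57 to 275 that covers counting error only. Immune-like cells of the same libraries held 0, 2, 8 and 24 UMIs, and their level of 0, 0.962, 1.34 and 2.47 CPM was above that of keratinocytes in 3 of the 4 libraries, at 0.0293, 0, 0.574 and 0.462 CPM. The part of stray RNA in the keratinocyte value was not tested. Basal-like cells held 2, 0, 23 and 14 of these UMIs and hair follicle-like cells 0, 0, 5 and 7. The filter on low counts removed the gene in differentiating-like, hair follicle-like and non-epithelial cells. Its first part overlaps Bex1 on the opposite strand, but the overlap does not include the 3′ end of either gene, where the assay reads.

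In hair follicle-like cells 4 of the 5 members tested had both TKO libraries higher (25.8% of 15529 genes did), 4 passed as raised (6.61%) and 0 as lowered (5.37%). In basal-like cells the counts were 5 of 6 higher (28.1% of 17667 genes), 4 raised (8.33%) and 0 lowered (4.96%). In differentiating-like cells 1 of 5 was higher in both TKO libraries (31% of 14416 genes) and 1 was raised (1.1%), in each case Bex1, while 0 were lowered (0.493%). With the replicate number as a block, Bex1 was not called in this class. The member medians of the log2 change were 1.32 in basal-like, 0.96 in hair follicle-like and 0.43 in differentiating-like cells, with medians over all genes between −0.02 and 0.00. The hair follicle-like calls and median depended on the clustering settings, as given in the last section. Whether the difference was smaller in differentiating-like cells was not tested.

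For Bex3, Bex4 and Tceal9 in hair follicle-like cells the Bex1-led cluster mattered too. Without it Bex3 had 152 and 160 CPM in Ctrl and 229 and 180 CPM in TKO, 1.31-fold apart. Tceal9 had 373, 364, 500 and 451 CPM, 1.29-fold apart, and Bex4 had 13.05, 16.46, 27.2 and 18.8 CPM, 1.56-fold apart. The 2 groups did not overlap for any of the 3 genes. The log2 change of Bex1 was 2.97 without this cluster.

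**Figure D4:**
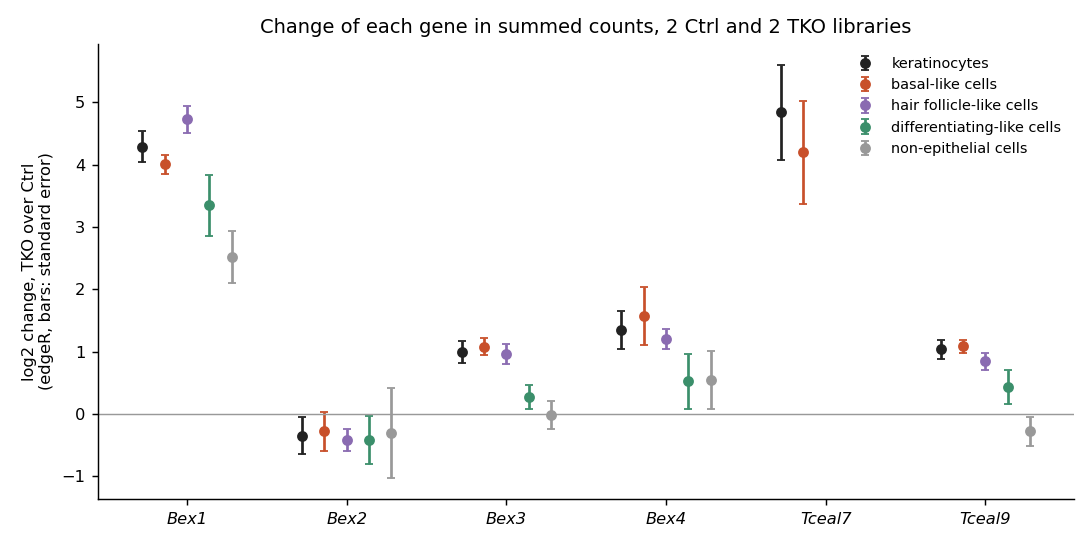
Log2 change between TKO and Ctrl (points) with its standard error (bars) for each of the 6 genes in keratinocytes, 3 keratinocyte classes and non-epithelial cells, from the edgeR fit. Bex1 lies between 3.35 and 4.73 in the keratinocyte sums, Bex3 and Tceal9 near 1 in keratinocytes, basal-like and hair follicle-like cells and at −0.02 and −0.28 in non-epithelial cells, and Bex2 below 0 in all 5 sums.

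Cells outside the epithelium gave a comparison within the same embryos. In non-epithelial cells 1 of the 5 members tested, Bex1, had both TKO libraries higher (22.1% of 15748 genes did), and 0 members passed the threshold (0% of all genes were raised). The edgeR test called 0 genes in this sum in either direction, with 1285 at an unadjusted p under 0.05, and DESeq2 called 73. The log2 change of Bex1 there was 2.52 ± 0.422, with 1.82 without TKO replicate 1 and 2.96 without TKO replicate 2. Most of its TKO UMIs, 1058 of 1274, came from melanocyte-like cells, which made up 87 of the 1128 TKO cells and 12 of the 455 Ctrl cells of this sum. In fibroblast-like and immune-like cells the ratio of the Bex1 means was 1.47 and 1.72. In fibroblast-like cells Tceal9 had 568 and 463 CPM in Ctrl and 521 and 471 CPM in TKO, and Bex3 had 193, 154, 197 and 146 CPM. In immune-like cells Tceal9 had 201, 222, 210 and 147 CPM and Bex3 had 127, 139, 142 and 98.3 CPM. Both genes thus overlapped between genotypes in both classes, and fibroblast-like cells of either genotype had a Tceal9 level close to that of TKO keratinocytes.

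Bex1 in these cells was low. Fibroblast-like cells had 15.3 and 10.9 CPM in Ctrl and 26.0 and 12.3 CPM in TKO, and the libraries overlapped. Immune-like cells had 2.22 and 3.37 CPM in Ctrl and 5.18 and 4.43 CPM in TKO, from 4, 7, 31 and 43 UMIs. The immune-like Bex1 level was 10.8% and 13.8% of the keratinocyte level in Ctrl and 0.942% and 1.30% in TKO, beside 3.95%, 3.62%, 0.712% and 0.521% for Krt14, a keratin that immune cells do not make. The part of stray keratinocyte RNA in the Bex1 counts of immune-like cells was not tested. For Bex3 and Tceal9 the immune-like level was 33.5% to 102% of the keratinocyte level.

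Melanocyte-like cells, a mixed cluster by its marker scores, were the non-epithelial class with most Bex1. They numbered 7, 5, 57 and 30 per library and held 6, 9, 730 and 328 Bex1 UMIs, or 26.0, 115, 419 and 395 CPM. The 2 Ctrl values rest on 12 cells in all. The same cells had Krt14 at 5407 and 153 CPM in Ctrl and 838 and 4226 CPM in TKO, and their 7 melanocyte markers summed to 2404 to 5673 CPM. Their cluster scored 4.25 for melanocyte, 3.88 for muscle and 3.7 for Schwann cell markers, so the cells may not be pigment cells alone. The part of keratinocyte RNA in their Bex1 was not tested. Tceal7 had 97 UMIs in 1 of the 30 melanocyte-like cells of TKO replicate 2 and none in the other cells of that class and library, against 4 UMIs in 2 cells of TKO replicate 1 and 0 in both Ctrl libraries. Keratinocytes held 97.0% to 97.9% of all Bex1 UMIs in every library. They held 69.8% of the Tceal7 UMIs in TKO replicate 1 and 14.9% in TKO replicate 2, or 35.2% without that cell.

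Within TKO keratinocytes, cells that had a Bex1 UMI also had more of Bex3 and Tceal9. At 5000 UMIs per cell, Bex3 stood at 410 CPM in cells with Bex1 and 193 in cells without in TKO replicate 1, and at 309 and 154 in TKO replicate 2. Ctrl cells ordered the same way, at 175 and 115 CPM in replicate 1 and 195 and 144 in replicate 2. For Tceal9 the values with and without a Bex1 UMI were 695 and 302 CPM in TKO replicate 1, 636 and 278 in TKO replicate 2, 353 and 210 in Ctrl replicate 1, and 377 and 260 in Ctrl replicate 2. These cells share library and depth but not class, and differentiating-like cells were low for all 3 genes, so the values describe cells and not a link between the genes.

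Another set of 5 genes silent in Ctrl and raised in TKO (Npffr1, Gm11884, Col28a1, 1700030N03Rik and Gm42653), chosen with earlier results known, was used to look at mosaic deletion. At least 1 UMI of the set was found in 0.674% and 0.644% of Ctrl keratinocytes and 65.5% and 57.2% of TKO keratinocytes at 5000 UMIs. In TKO replicate 1, Bex1 was at 509 CPM in cells with the set and 447 CPM in cells without. In TKO replicate 2 it was at 326 and 263 CPM. Bex1 was thus above both Ctrl libraries in either kind of TKO cell, and somewhat higher in cells with the set in both libraries. Cells without a UMI of the set at this depth are not known to have kept the targeted genes. Cell class was not held fixed. Whether Bex1 was higher in TKO cells without deletion was not tested.

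Other genes of the family were read from a list that was also written with earlier results known. Of 6 other Bex and Tceal genes (Bex6, Tceal1, Tceal3, Tceal5, Tceal6 and Tceal8), 3 passed the filter on low counts in keratinocytes and 0 were called. Tceal8, which lies between Bex4 and Bex1, had 95.5 and 108 CPM in Ctrl and 129 and 115 CPM in TKO (log2 change 0.24). Tceal5, its neighbour, had 1.80, 2.53, 10.3 and 4.31 CPM (log2 change 1.73 ± 0.434, adjusted p = 0.0771, edgeR). It passed the test in basal-like cells (log2 change 1.45 ± 0.351, adjusted p = 0.0430, edgeR) and in hair follicle-like cells (2.31 ± 0.427, adjusted p = 0.0146, edgeR), with both TKO libraries higher in each. Tceal1 changed by −0.37 and was not called.

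Genes around the cluster on the X chromosome were read apart from the 6 members. Of 95 other genes that start within 1 Mb of a member, 19 were tested in keratinocytes. At an adjusted p under 0.05 by edgeR 0 were called (4.26% of all genes were raised and 2.58% lowered), with a median log2 change of 0.04. In 6 of the 19 both TKO libraries were above both Ctrl libraries (28.8% of all genes). These included Tceal8 and Tceal5, which lie between Bex4 and Bex1. In basal-like cells 1 of 17 was raised and in hair follicle-like cells 1 of 18, in both cases Tceal5. The Armcx, Gprasp and Arxes genes, related X-linked families beside this cluster, had 10 of 11 tested and 0 called, with 5 higher and 5 lower. Over the other X-linked genes tested, 19 of 555 were raised (3.42%) and 21 lowered, beside 4.26% and 2.58% of all genes.

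**Figure D5:**
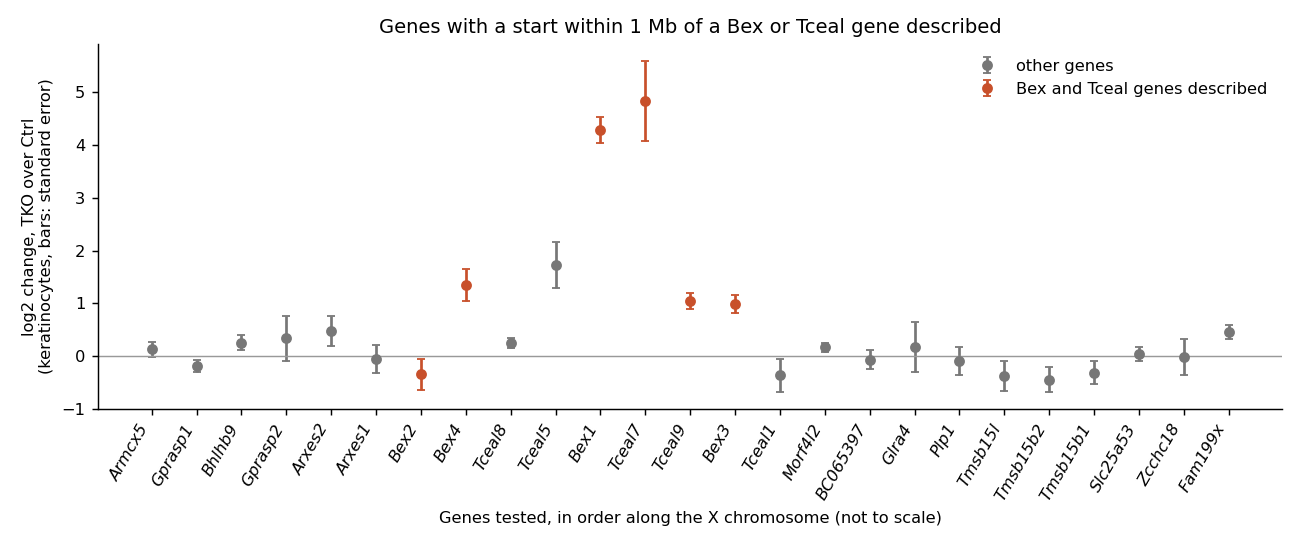
Log2 change between TKO and Ctrl keratinocytes, with its standard error, of the 19 other tested genes that start within 1 Mb of a member and of the 6 members, placed in their order along the X chromosome. Members and other genes are in separate colours. The highest points, Bex1 and Tceal7, stand between Tceal5 at 1.73 and Tceal9 at 1.04. Apart from Tceal5, the genes outside the members lie between −0.45 and 0.47.

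Of 17 neurotrophin receptors, ligands and partners, 15 were tested in keratinocytes, 1 was raised (4.26% of all genes were) and 1 was lowered (2.58%). The lowered gene was Sorcs1, a sorting receptor of the sortilin family, at 9.72 and 8.86 CPM in Ctrl and 2.79 and 2.33 CPM in TKO (log2 change −1.88 ± 0.194, adjusted p = 0.00994, edgeR). Ngfr, which encodes the p75 receptor that Bex1 and Bex3 bind, was at 0.103 and 0.157 CPM in Ctrl and 0.440 and 0.185 CPM in TKO and was not called.

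Of 19 transcription elongation genes, the class after which Tceal proteins are named, 19 were tested and 0 were called in keratinocytes by edgeR, at a median log2 change of 0.00. In basal-like cells 2 were raised, Eloc and Elob (log2 changes 0.42 and 0.45), beside 8.33% of all genes, and 2 were lowered, Tcea3 and Ell2 (−0.89 and −0.72), beside 4.96%. In hair follicle-like cells Eloc was raised (0.505) and Ell2 lowered (−0.61), and in differentiating-like cells 0 were called. Of 12 neuron markers 8 were tested, 0 were raised and 2 (Snap25 and Stmn2) were lowered. Summed over keratinocytes these markers had 13.2 and 11.5 CPM in Ctrl and 3.37 and 3.99 CPM in TKO, of which 9 to 11 of the 12 had a UMI, so the higher Bex1 level stood beside a lower and not a higher neuron marker sum. Merkel cells also make several of these genes.

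Across 20 sums (5 classes in 4 libraries), the member profiles on a log2 scale were most alike for Bex3 and Tceal9 (Pearson r = 0.86) and for Bex1 and Bex3 (r = 0.82), and least for Bex2 and Tceal7 (r = −0.39). Among 11777 other genes, those close to the mean member profile included Dnaja1 (r = 0.94), a heat shock co-chaperone, Zfp934 (r = 0.93), a zinc finger gene, Irak1bp1 (r = 0.92) and Tpm1 (r = 0.92), a tropomyosin. Their keratinocyte log2 changes ran from 0.35 for Dnaja1 to 1.86 for Tpm1, which had 56.6 and 89.4 CPM in Ctrl and 330 and 208 CPM in TKO. The 20 sums share 4 libraries, so these coefficients are descriptions.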

How the data were processed

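The authors prepared 10x Genomics 3′ libraries from sorted dorsal skin cells and deposited, for each of 4 libraries, a cell-filtered matrix whose entries are raw counts of UMIs for a gene in a cell. The deposited counts were not normalized. Per the file headers they were written by Cell Ranger 7.1.0, and the build was GRCm39. The gene annotation, and whether introns were counted, are not given in the sources used here.

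Cells with at least 2000 genes and under 10% mitochondrial UMIs were kept. The top Scrublet scores (scanpy 1.11.5), 0.8% per 1000 barcodes, were left out as doublets, between 66 and 157 per library. Components were aligned by an own implementation of Harmony and clustered with Leiden at resolution 1. Clusters were named from fixed marker lists as "-like". A second clustering of keratinocytes left out the 1364 genes called between genotypes. The doublet rate and the naming rules were settled after cells had been seen, as in earlier work on these data.

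Counts were summed per class and library, so that the library, 1 embryo each, was the replicate. The edgeR 4.0.16 quasi-likelihood test (R 4.3.3, TMM factors, default filter) was fitted over all genes with genotype as the only term, with a threshold of 0.05 on the p adjusted by Benjamini-Hochberg. DESeq2 1.42.0 was an alternative. The test was tried on simulated counts first. Levels are counts per 1e6 UMIs of the class (CPM). Shares of cells were computed after thinning to 5000 UMIs. Means carry the SD of 2 libraries, and intervals cover counting error only. Labels give groups the same replicate numbers but do not say that a number marks a litter.

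The 6 genes and all lists were chosen with earlier results of these data known. Named genes were the 6 members, listed genes called in keratinocytes, called genes within 1 Mb of a member and the 5 genes most like the mean member profile (at least 5 CPM on average, log2 of CPM plus 1). Tceal8, Tceal5, Tceal1, Ngfr and the 4 elongation genes were named after their values were seen. Some genes that this rule names are not reported here. Positions came from GENCODE vM39 by gene ID, which matched 56236 of the 56980 genes. The labels' age was followed, although the study's list of litters gives an earlier day.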

Additional observations from a re-analysis of the deposited data

Results flagged for a closer look

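Barcodes with under 2000 genes or with too many mitochondrial UMIs were left out of every comparison, and 5 of the 6 genes had a signal in them that was higher in TKO than in Ctrl. These barcodes numbered 2447 and 2394 for Ctrl replicates 1 and 2, and 1643 and 2084 for TKO replicates 1 and 2. Bex1 had 1.993 and 2.92 CPM in Ctrl and 62.7 and 26.75 CPM in TKO, from 22, 16, 218 and 158 UMIs. Bex3 had 10.33 and 16.42 CPM in Ctrl and 55.51 and 24.04 CPM in TKO. Tceal9 had 18.84 and 37.59 CPM in Ctrl and 97.21 and 40.81 CPM in TKO. Bex4 had 0.3623 and 1.095 CPM in Ctrl and 2.301 and 1.355 CPM in TKO.

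Tceal7 had 0 UMIs in both Ctrl libraries, 13 in TKO replicate 1 and 3 in TKO replicate 2, where 3 UMIs is no more than the floor of 3 counts.

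For all 5 genes both TKO libraries stood above both Ctrl libraries, which 15.3% of the 19941 genes tested in keratinocytes also did in these barcodes. Tceal9 in TKO replicate 2 lay close to Ctrl replicate 2. Krt14 in these barcodes was at 423, 746, 733 and 690 CPM. The part of stray RNA and of damaged cells in these values was not tested.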

How the results depend on the processing

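The counts of genes called, against which the members were read, moved with the settings. In keratinocytes 1364 genes were called, 2648 with DESeq2, 635 without the filter on low counts, 821 with cells thinned to 5000 UMIs, and between 7 (without Ctrl replicate 1) and 2245 (without TKO replicate 2) with 1 library left out. The lone library is then assumed to vary like the other group. In basal-like cells 2348 were called, 1341 after thinning, and 862 to 3032 with 1 library left out. In differentiating-like cells 230 were called, 767 with DESeq2, 1947 without the filter, 451 with uncorrected components, and 169 to 431 with 1 library left out. In hair follicle-like cells 1861 were called, 752 after thinning, 932 with uncorrected components, 1232 and 1182 at Leiden resolutions 0.5 and 2, 1060 without the Bex1-led cluster, and 835 to 1828 with 1 library left out. In non-epithelial cells edgeR called 0, DESeq2 73, and 0 to 107 were called with 1 library left out.

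The median log2 change of the members ran from 0.88 to 1.47 in keratinocytes, 0.99 to 1.67 in basal-like, 0.03 to 0.70 in differentiating-like, 0.68 to 1.21 in hair follicle-like and −0.36 to 0.38 in non-epithelial cells with 1 library left out. In hair follicle-like cells it was 0.64 with at least 3000 genes per cell, 0.39 with uncorrected components, 0.45 and 0.56 at Leiden resolutions 0.5 and 2, and 0.40 without the Bex1-led cluster, in place of 0.96. Where cells of that cluster were placed by these settings was not tested. Without the filter on low counts Bex3 and Tceal7 were not called in keratinocytes. With uncorrected components Bex3, Bex4 and Tceal9, and at Leiden resolution 0.5 Bex3 and Tceal9, were not called in hair follicle-like cells. Tceal7 lost its call in basal-like cells without Ctrl replicate 2 or TKO replicate 1. No called member reversed its direction under any setting run.

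With the replicate number as a block, 1123 genes were called in keratinocytes, 1634 in basal-like, 47 in differentiating-like, 1650 in hair follicle-like and 0 in non-epithelial cells. Bex1 was then not called in differentiating-like cells (log2 change 3.30). The member medians were 1.17, 1.24, 0.45, 0.94 and −0.04. Same-numbered libraries did not deviate together (r = −0.34), so the numbers were taken as names and not as a pairing. With 2 libraries a group both pairs must give this value, and differently numbered libraries give it with the opposite sign. A pairing across numbers was not tested. With 2 libraries a group and Tceal7 at 2 UMIs in Ctrl, the size of its difference is poorly known, and the interval given covers counting error only.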
